A study of Homo sapiens with 4 samples.

Results

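The nuclear genes of mitochondrial ribosomal proteins were examined in the human neuroblastoma line SK-N-SH, with and without overexpression of the long non-coding RNA AP1AR-DT. A gene was taken as a member where its symbol was MRPL or MRPS followed by a number and at most 1 of the letters A to C. This gave 73 of the 24014 genes of the count table, 72 symbols in all, because MRPS17 has 2 rows. Of these genes, 47 encode proteins of the large subunit and 25 proteins of the small subunit, and MRPS36 counts to neither. MRPS18B, MRPS21 and MRPL45 were not analysed here, and MRPL57 and MRPL58, which the table lists under older symbols, are not taken by this rule.

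RNA was sequenced in 4 libraries. In the 2 control libraries the wild type cells had received an empty lentivirus with no insert, and in the 2 AP1AR-DT_OE libraries a recombinant lentivirus carrying AP1AR-DT, called AC109347.1 in the titles. For AP1AR-DT_OE 2 the genotype and treatment name AC109347.2 instead, and the title was followed. All 4 are of the same line, so they speak for 1 cell background, and the labels do not say whether libraries of a group came from separate cultures. The p-values therefore measure only the spread between these libraries, which may be technical.

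Mitochondria have ribosomes of their own, which translate the few membrane proteins of the respiratory chain and ATP synthase that mitochondrial DNA encodes. Their ribosomal RNAs come from the mitochondrial genome, whereas all of their proteins are made from nuclear genes in the cytosol and imported. Some of these proteins have counterparts in all ribosomes, some only in bacteria, and some only in mitochondria, and the mammalian mitoribosome is rich in protein relative to RNA. The 3 MRPS18 genes are relatives of the bacterial protein S18. MRPS18C (bS18m) takes the place of S18 in the small subunit, MRPS18B (mS40) lies elsewhere in the small subunit, and MRPS18A (mL66) is a protein of the large subunit in spite of its name, as is MRPS30 (mL65). MRPS36 was once counted as a small subunit protein and is now known as a component of the 2-oxoglutarate dehydrogenase complex.

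The stretch before the start of transcription is shown for 5 of the genes, because promoters of mitochondrial ribosomal protein genes are known for sites of NRF1, a regulator of nuclear genes for mitochondria, of the ETS family and of YY1. MRPS18A and MRPS18C are the pair to be compared, MRPL52 and MRPL36 stood next to MRPS18A in Log2FC among genes with reads in all libraries, and MRPS34 had the highest level per kilobase in the small subunit. Each line gives the 150 bases before the RefSeq start, 5′ to 3′ on the strand of the gene, in build GRCh38.p14. Capitals mark matches on either strand to GCGCANGC (NRF1), CCGGAAG (ETS family), AAGATGGC (YY1) or CACGTG (MYC E-box).
MRPS18A, chr6:43687792-43687941, minus strand: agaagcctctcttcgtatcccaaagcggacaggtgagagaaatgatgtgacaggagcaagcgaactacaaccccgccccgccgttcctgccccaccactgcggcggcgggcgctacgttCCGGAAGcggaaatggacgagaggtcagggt
MRPS18C, chr4:83455908-83456057, plus strand: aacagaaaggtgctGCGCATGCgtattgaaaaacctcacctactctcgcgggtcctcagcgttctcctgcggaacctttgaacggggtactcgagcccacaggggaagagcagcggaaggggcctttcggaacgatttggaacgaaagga
MRPL52, chr14:22829737-22829886, plus strand: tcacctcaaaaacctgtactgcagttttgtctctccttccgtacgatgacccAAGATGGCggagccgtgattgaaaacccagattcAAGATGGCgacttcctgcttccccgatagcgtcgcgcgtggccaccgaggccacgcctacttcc
MRPL36, chr5:1799838-1799987, minus strand: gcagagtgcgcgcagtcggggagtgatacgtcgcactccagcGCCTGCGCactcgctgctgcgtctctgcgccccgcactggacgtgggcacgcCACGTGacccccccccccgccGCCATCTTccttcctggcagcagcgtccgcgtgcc
MRPS34, chr16:1773135-1773284, minus strand: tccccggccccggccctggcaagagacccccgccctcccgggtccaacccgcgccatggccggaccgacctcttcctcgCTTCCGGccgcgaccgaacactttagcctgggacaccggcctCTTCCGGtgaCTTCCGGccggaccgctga
The MRPS34 stretch holds 3 ETS matches and the MRPL52 stretch 2 YY1 matches, while MRPL36 holds NRF1, E-box and YY1 matches together. Within these 150 bases MRPS18A has an ETS match and MRPS18C an NRF1 match. The longer windows described next also hold an ETS match and an E-box for MRPS18C and a YY1 match for MRPS18A.

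Promoter windows of 300 bases, 250 before and 50 after the start, were found for 63 of the 72 symbols. The YY1 string stood in 18 of the 63 windows (28.6%), against 3.03% of the 27305 windows of that length over all genes. The ETS string stood in 26 of the 63 (41.3%, against 10.7%) and the NRF1 string in 18 (28.6%, against 12.5%), whereas the E-box stood in 5 (7.94%, against 7.43%). Both subunits held them, with the ETS string in 16 of 40 large and 10 of 23 small subunit windows, and the YY1 string in 13 and 5. None of the 4 strings contains another, and each was counted on its own. The windows over all genes were not limited to genes with reads here and were not matched for GC content. The median Log2FC of AP1AR-DT_OE against control was 0.13 for genes with the YY1 string and 0.09 for those without, and 0.10 with and 0.10 without the ETS string. It was 0.09 with and 0.10 without the NRF1 string, and 0.21 for the 5 genes with the E-box against 0.09 for the rest. A match is only a run of letters, and binding was not measured.

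Library totals lay between 21988065 and 26184599 counts. AP1AR-DT had 3 and 18 counts in control 1 and 2, and 680 and 1065 in AP1AR-DT_OE 1 and 2, a Log2FC of 6.63 (SE 0.64, DESeq2 adjusted p = 3.6e-21), so the labels and the targeted gene matched. The adrenergic markers PHOX2A, HAND2, GATA3, ISL1 and DBH and the 7 mesenchymal markers all had reads in every library. None of them was called by DESeq2, where 0.137% of all genes were. PRRX1, a mesenchymal transcription factor, had 2432, 14724, 1131 and 2263 counts in control 1, control 2, AP1AR-DT_OE 1 and AP1AR-DT_OE 2 (Log2FC −2.02, SE 0.61, adjusted p = 0.43). Of the 7 mesenchymal markers 3 had a Log2FC above 0 and 4 below, with a median of −0.05 and PRRX1 the lowest. In bulk RNA, fewer cells of a type and less RNA per cell cannot be told apart. Wherever 4 counts follow each other below, they stand in this order of libraries.

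The mitochondrial ribosomal protein genes together held 0.366% and 0.401% of the counts of the control libraries and 0.389% and 0.434% of those of the AP1AR-DT_OE libraries. Those of the large subunit came to 2333 and 2432 CPM in the controls and 2430 and 2706 with AP1AR-DT_OE, and those of the small subunit came to 1322 and 1579 against 1464 and 1634. For both subunits AP1AR-DT_OE 1 lay between the controls, so the groups overlapped.

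Levels were compared between genes as normalized counts, that is counts divided by the size factor of the library, per kilobase of the longest annotated transcript. Each gene was averaged over the 4 libraries. The median over genes was then 546.0 per kilobase in the large subunit and 188.5 in the small subunit, and the members spanned from 2.10 to 9214. Highest in the large subunit was MRPL41 (mL41, found only in mitochondria), with 9214 on average and 7320 to 10303 over the libraries. It was followed by MRPL12 (bL12m, the stalk protein that translation factors meet) at 3651 in spite of a 0 in control 2, MRPL34 (bL34m) at 2472, and MRPL24 and MRPL23, which lie around the exit of the peptide tunnel, at 2229 and 2092. The libraries of MRPL34, MRPL24 and MRPL23 overlapped, with 2269 to 2721, 1820 to 2529 and 1698 to 2394, so their order does not exceed the spread. Those of MRPL41 lay above all 4 libraries of every other member.

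In the small subunit MRPS34 (mS34, found only in mitochondria) stood first at 6299 per kilobase, with 5096 to 6880 over the libraries. MRPS26 (mS26) followed at 3163, MRPS12 (uS12m, a protein of the decoding centre) at 2830, MRPS2 (uS2m) at 2024 and MRPS16 (bS16m) at 1713. MRPS26, with 2482 to 3625, and MRPS12, with 2322 to 3238, were not apart, nor were MRPS2, with 1495 to 2414, and MRPS16, with 1433 to 2013. Of the 5 highest small subunit genes, 2 encode proteins found only in mitochondria. Inherited defects of mitochondrial translation are known for 12 members listed for it, MRPS2, MRPS16 and MRPS34 among them, and the median of these 12 was 522.2.

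**Figure D1:**
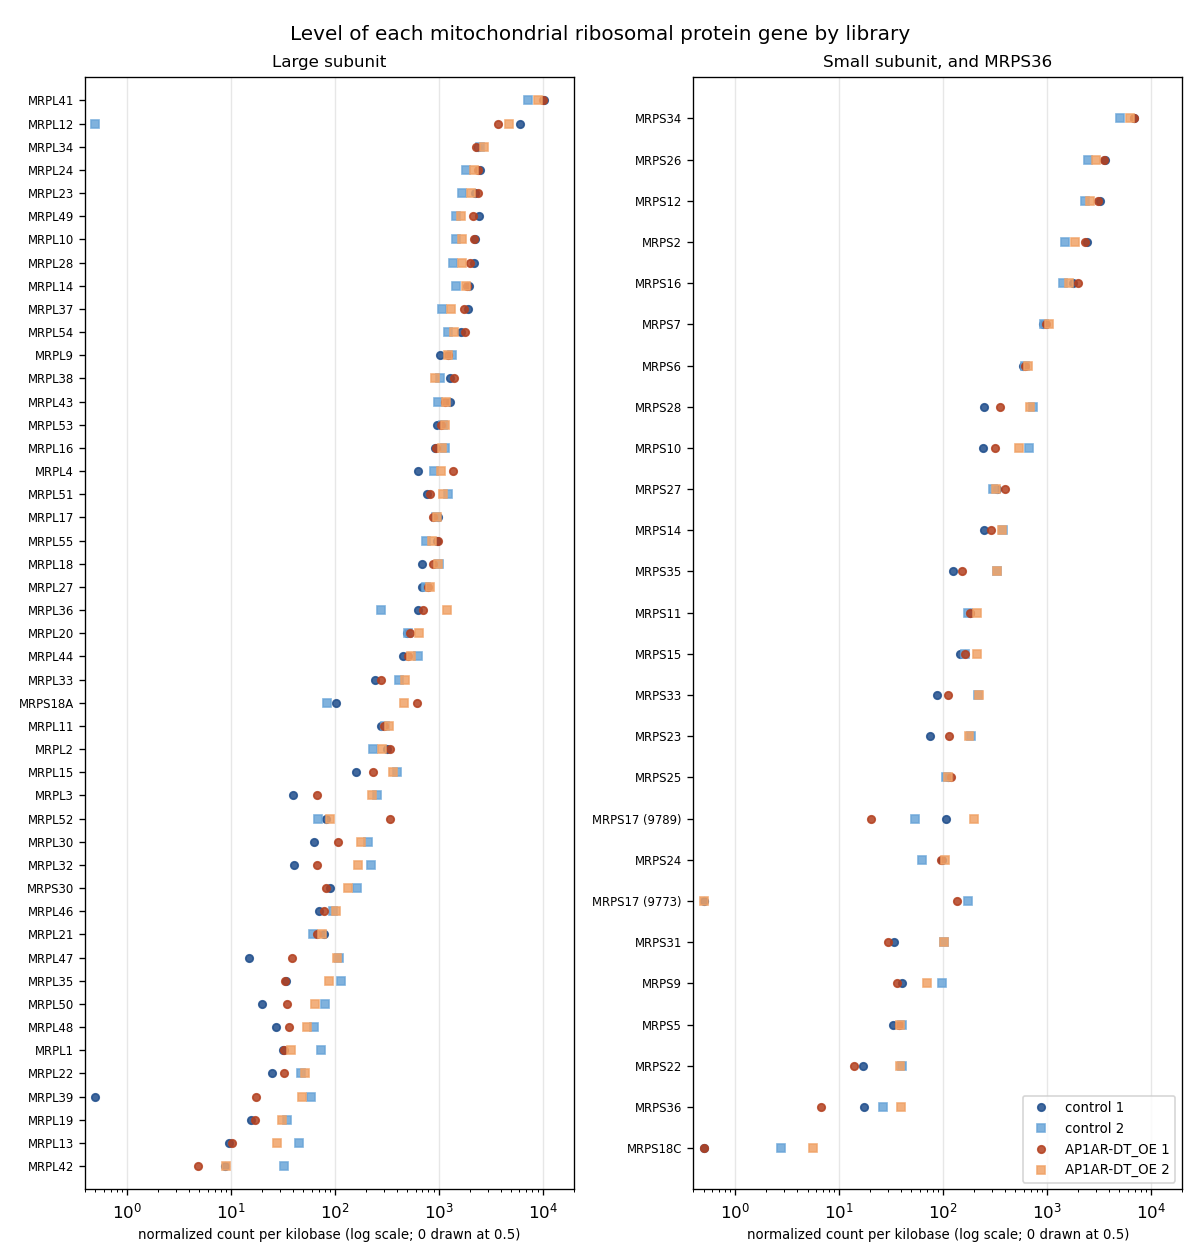
Normalized count per kilobase of the longest transcript (log axis, 0 drawn at 0.5) of each mitochondrial ribosomal protein gene in each library, in order of the mean within each subunit. MRPL41 and MRPS34 lead at 9214 and 6299, and points of control 1 and AP1AR-DT_OE 1 often lie together to the left in the lower part, where GC content is low.

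At the low end of the large subunit stood MRPL42 (mL42) at 13.8, MRPL13 (uL13m) at 23.2 and MRPL19 (bL19m) at 24.7 per kilobase. In the small subunit these were MRPS18C at 2.10, MRPS22 (mS22) at 27.7 and MRPS5 (uS5m) at 37.7. Several of these have annotated transcripts of many kilobases (MRPL42 15560 bases, MRPL19 7825 and MRPS5 7132), which lowers a level per kilobase where shorter forms are made. With the length of the canonical transcript the medians became 920.8 in the large and 235.8 in the small subunit, and with the union of all exons 393.1 and 128.4. The ranking moved too. Of the 5 highest genes, 4 in the large and 4 in the small subunit stayed among the 5 highest with the canonical length. With the union of exons 3 and 5 did.

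MRPS18A was the only member called at an adjusted p under 0.05, and it was higher with AP1AR-DT_OE. It had 105 and 128 counts in the control libraries and 658 and 543 in the AP1AR-DT_OE libraries. Both AP1AR-DT_OE libraries lay far above both controls. As normalized read counts this was 109.2 ± 14.7 against 630.4 ± 129.3 (SD, n = 2), a Log2FC of 2.53 (SE 0.50, DESeq2 adjusted p = 0.00090). Among all genes tested, 33 were called (0.137%), 20 of them higher (0.0833%), so that 1 of 73 members is a share of 1.37%.

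MRPS18A lies on chromosome 6 from 43671202 to 43687791 on the minus strand, in the GRCh38 positions of the table, and its last part has 705 bases of exon in common with RSPH9 on the opposite strand, 50.9% of its exon sequence. RSPH9, a radial spoke head protein of motile cilia, runs from 43645036 to 43672600, so the genes converge. RSPH9 had 926 and 831 counts in control libraries and 251 and 231 in AP1AR-DT_OE libraries, lower in both, with a Log2FC of −1.75 (SE 0.50, DESeq2 adjusted p = 0.23). The sum of both genes was 1031 and 959 counts in the controls and 909 and 774 with AP1AR-DT_OE. MRPS18A took 10.2% and 13.3% of this sum in the controls and 72.4% and 70.2% with AP1AR-DT_OE.

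The sum thus did not show the rise that MRPS18A showed alone. Its Log2FC was −0.12 (SE 0.48, DESeq2 adjusted p = 1.00). Whether reads from the shared exon sequence were given to a different gene in the different libraries was not tested, and nothing in the sources used here says that the counting of these libraries used strand. Without AP1AR-DT_OE 1 the adjusted p of MRPS18A was 0.62, and without AP1AR-DT_OE 2 it was 0.077, each with the remaining library assumed to vary like the controls. In the quasi-likelihood test of edgeR the Log2FC was 2.52 with an adjusted p of 1.00, and MRPS18A was the 1 member with an unadjusted p under 0.05. That test called 0 of 17027 genes, AP1AR-DT among those not called (adjusted p = 0.39).

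**Figure D2:**
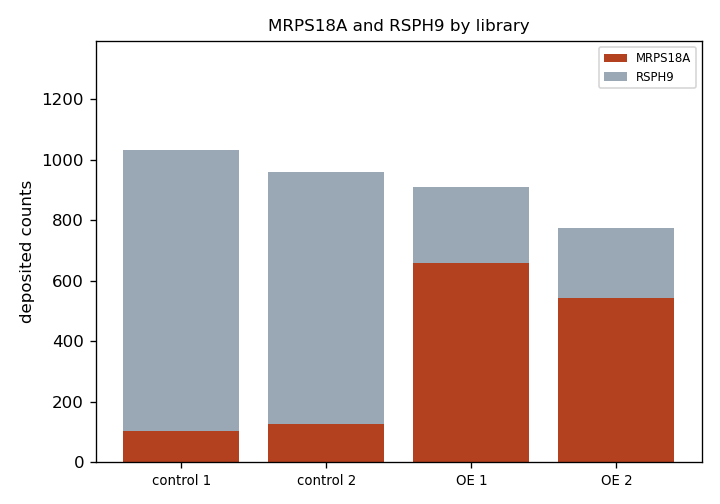
Deposited counts of MRPS18A and RSPH9, stacked, in control 1, control 2, AP1AR-DT_OE 1 (OE 1) and AP1AR-DT_OE 2 (OE 2). The bar heights lie between 774 and 1031, while the MRPS18A part goes from 105 and 128 counts in the controls to 658 and 543.

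MRPS18C, which stands at the S18 position of the small subunit, was hardly seen. It had 0, 9, 0 and 14 counts, and the limit that a count of 0 allows was 3 read pairs, or 12 counts. Only AP1AR-DT_OE 2 lay above it, so no change between the groups is given. It too has exon sequence in common with a gene on the opposite strand, 1956 bases of FAM175A, a subunit of the BRCA1-A complex. FAM175A had 31, 163, 44 and 117 counts. MRPS18CP7, a pseudogene row on chromosome X named after MRPS18C, had 35, 144, 37 and 79 counts, above MRPS18C in each library. How reads were divided between MRPS18C and these rows was not tested.

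Per kilobase, MRPS18A was at least 18.7 and 22.8 times as high as MRPS18C in the controls and at least 117.0 times as high in AP1AR-DT_OE 1. In AP1AR-DT_OE 2, where MRPS18C had 14 counts, the ratio was 82.8. These ratios take the longest transcript of each gene, and with the canonical transcripts they were 11.7, 14.2, 73.1 and 51.7. With the union of exons they were 30.7, 37.5, 192.6 and 136.3, so the bounds hold only for the length chosen. They also hold only for the counts as given to each row, since the limit covers counting error only. MRPS18C took 0%, 5.2%, 0% and 10.7% of its sum with FAM175A, and the share of MRPS18A in its sum with RSPH9 differed between the groups. With 2 against 2 libraries no exact permutation p can be below 0.33, and no test was made. MRPS18AP1, a processed copy of MRPS18A on chromosome 3, had 383 and 322 counts in control libraries and 295 and 255 with AP1AR-DT_OE (Log2FC −0.25, SE 0.53), and its normalized groups overlapped. Reads may be hard to divide between a gene and such a copy.

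Of the other members, MRPL52 and MRPL42, both large subunit proteins found only in mitochondria, had an unadjusted p under 0.05, which makes 3 of 73 with MRPS18A, where 0.816% of all genes did. MRPL52 had 148 and 182 counts in control libraries and 634 and 183 in AP1AR-DT_OE libraries. Its Log2FC was 1.51 (SE 0.64, DESeq2 adjusted p = 1.00). The value rests on AP1AR-DT_OE 1, since the normalized read count of 181.6 in AP1AR-DT_OE 2 was close to the 168.6 and 140.4 of the controls, and without AP1AR-DT_OE 1 the Log2FC was 0.23. MRPL42 had 120 and 656 counts in control libraries and 69 and 142 in AP1AR-DT_OE libraries (Log2FC −1.57, SE 0.68, DESeq2 adjusted p = 1.00). Control 2 stood alone at the top, and the groups overlapped. Without it the Log2FC of MRPL42 was −0.32.

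Next in Log2FC among members whose groups did not overlap came MRPL36 (bL36m, a very small protein of the large subunit) with 1.07 (SE 0.56). The controls had 444 and 285 counts, and the AP1AR-DT_OE libraries 512 and 963. MRPL4 (uL4m, part of the wall of the peptide tunnel) had 899, 1885, 2034 and 1720 counts and a Log2FC of 0.67 (SE 0.46), with control 1 far below the rest. MRPS15 (uS15m, which binds ribosomal RNA of the small subunit) had 271, 452, 318 and 458 counts and a Log2FC of 0.29 (SE 0.49), a value smaller than its error, and the normalized read count of AP1AR-DT_OE 1 (348.8) hardly exceeded that of control 2 (348.7). None of them passed the test.

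Of the 70 members whose normalized read count averaged 50 or more, 9 had both AP1AR-DT_OE libraries above both controls and 0 had both below. This is 12.9% of them, where 9.45% of all genes with such a mean had groups that did not overlap, 5.11% higher and 4.35% lower. After a correction for GC content 7 members lay above and 2 below. The share of all genes after this correction was not computed, so these counts have no background beside them. In 57 of the 70 members (81.4%) the controls differed from each other by more than the group means did, against 89.5% of all genes. For most members the difference between the groups was thus within the spread of the controls.

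The median Log2FC was 0.09 over all members, 0.07 in the large and 0.10 in the small subunit, with a median SE of 0.49. Over all genes it was −0.03. Of the 73 members, 54 had a Log2FC above 0 and 19 below 0. In the large subunit 33 of 47 were above 0 and in the small subunit 20 of 25. By descent the medians were 0.10 for the 28 proteins with counterparts in all ribosomes, 0.09 for the 18 shared with bacteria and 0.08 for the 26 found only in mitochondria, and these classes were not tested against each other. No member of the small subunit was called by DESeq2, nor did any have an unadjusted p under 0.05 in it. Of all genes 0.137% were called and 0.816% had such a p, so for 25 genes this is near the background. Without control 1 the median over members was −0.02, with 35 of 73 above 0, and without control 2 it was 0.23.

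**Figure D3:**
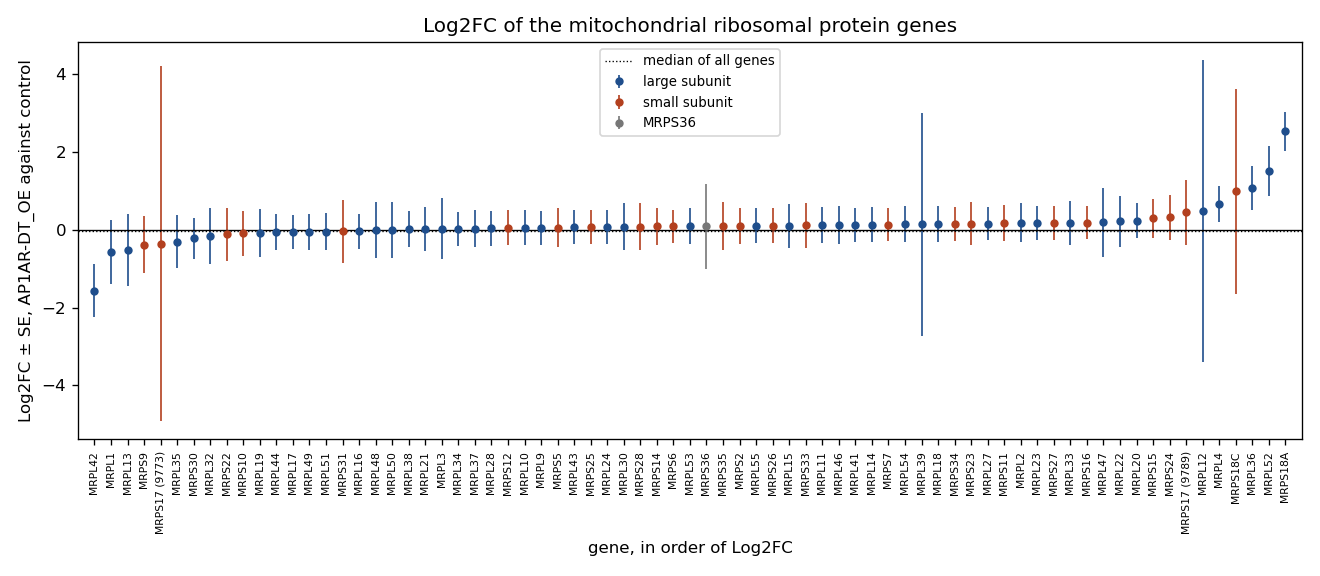
Log2FC of AP1AR-DT_OE against control with its SE (bars) for each of the 73 genes in order of Log2FC, by subunit, with the median of all genes (−0.03) dotted. MRPS18A stands at 2.53, most genes lie within 1 SE of 0, and the longest bars belong to genes with 0 counts in 1 or more libraries.

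In the stalk and its base, MRPL10 (uL10m) had a Log2FC of 0.05 (SE 0.45) and MRPL11 (uL11m) of 0.12 (SE 0.46). The genes around the exit tunnel that were measured, 5 of 6, lay between −0.06 and 0.21, and the 12 genes of inherited deficiency had a median of 0.09, with 10 above 0. None was called by DESeq2, and 0 of them had an unadjusted p under 0.05 in it. Of all genes 0.137% were called and 0.816% had such a p, and edgeR called 0 of 17027 genes. These counts are thus near the background and tell little about these genes.

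Counts at or under the limit for a count of 0 occurred in 5 members. MRPL12 had 5411 and 0 counts in control libraries and 3422 and 4857 in AP1AR-DT_OE libraries. The absence in control 2 went with reads at an overlapping row. SLC25A10 (ENSG00000262660 of the table), on the same strand with 701 bases of exon in common, had 0 and 2412 counts in control libraries and 3357 and 0 with AP1AR-DT_OE, so that it had reads in the library where MRPL12 had none. SLC25A10 is the gene of the mitochondrial dicarboxylate carrier. The sum of both rows was 5411, 2412, 6779 and 4857 counts, so control 2 stayed the lowest library with SLC25A10 added. Whether the 0 of MRPL12 was a loss of its RNA was not tested, and no fold is given for it.

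MRPS17 (uS17m) has 2 rows on chromosome 7. The first, ENSG00000239789 from 55951877 to 55956500, had 167, 125, 33 and 357 counts. The second, ENSG00000249773, starts upstream at 55887277, ends at 55955239 and has 1082 bases in common with ZNF713, and it had 0, 393, 215 and 0 counts. The rows have 471 bases of exon in common, and the second had reads only in control 2 and AP1AR-DT_OE 1. MRPL39 had 0, 93, 19 and 59 counts and MRPS36 20, 45, 8 and 53, without an order by group.

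At the loci of MRPL4 and MRPS34 the share of the member differed in control 1 from the other libraries. CTD-2369P2.4, on the strand opposite to MRPL4, had 700 counts in control 1, the library where MRPL4 was lowest, and 22, 24 and 25 in the other libraries. MRPL4 took 55.2% of the sum of its locus in control 1 and 97.6% to 98.8% elsewhere. EME2, a partner of the MUS81 nuclease on the strand opposite to MRPS34, had 82 counts in control 1 and 2412, 1972 and 1999 in the other libraries. MRPS34 itself kept to 6253, 6871, 6523 and 6678. The sum of this locus was 6335, 9283, 8495 and 8677 counts, so unlike at MRPS18A it changed with the overlapping gene. With overlapping genes summed, the Log2FC of MRPL4 was 0.28 (SE 0.45), below the 0.67 of the gene alone.

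Exons shared with some other gene, on either strand, were found for 37 of the 73 members (50.7%). On the same strand this held for 15 (20.5%), against 9.04% of all genes. MRPS24 (uS3m), for example, had only 150, 141, 152 and 182 counts, beside 2383, 2761, 2263 and 2407 at URGCP-MRPS24, a readthrough row with 606 bases of exon in common. How reads were divided between such rows was not tested.

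**Figure D4:**
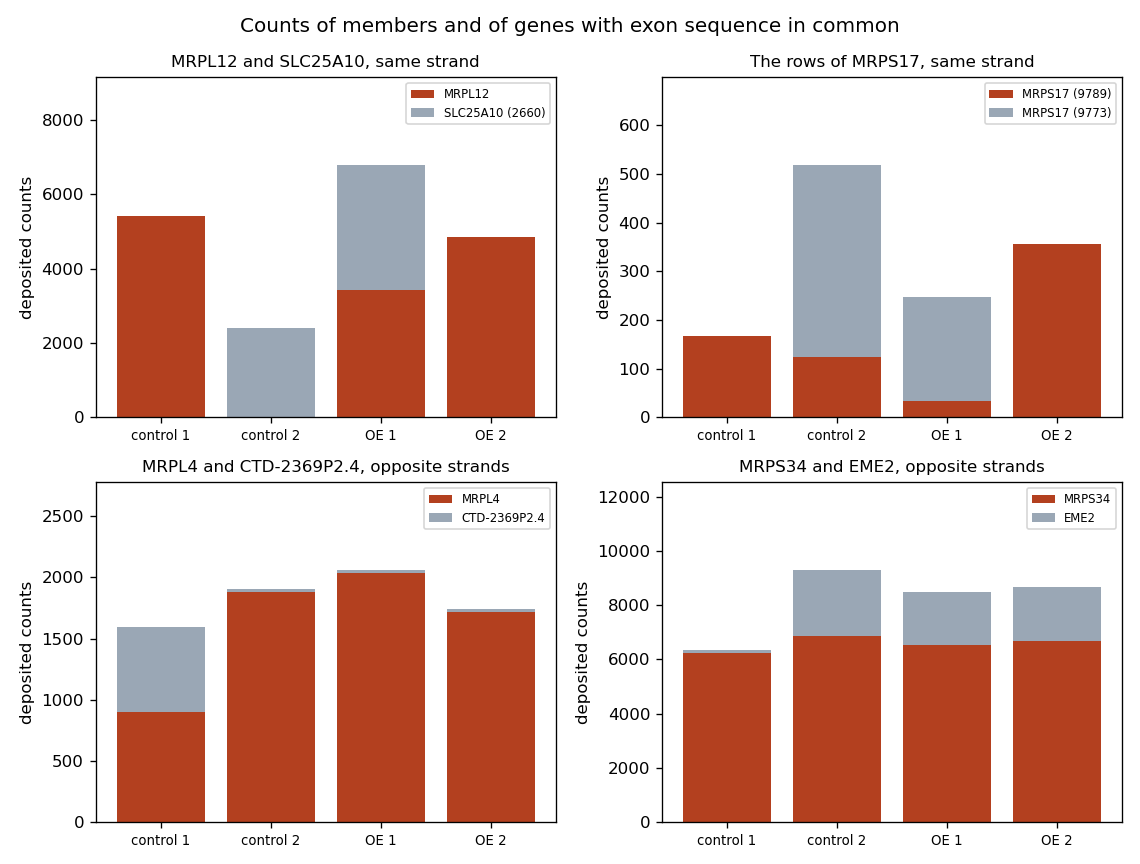
Deposited counts by library (OE, AP1AR-DT_OE) of 4 members, in red, stacked with a row that has exon sequence in common, in grey. Rows are told apart by the last 4 digits of the gene identifier. MRPL12 is empty in control 2, where SLC25A10 had 2412 counts, and CTD-2369P2.4 had 700 counts only in control 1, where MRPL4 had 899.

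GC content of the transcript moved with the level of a gene within a library. Among the 70 members with a mean of at least 50, the deviation of log2 level from the mean of the 4 libraries rose with GC content of the transcript in control 1 (Spearman's rho 0.67) and AP1AR-DT_OE 1 (0.75) and fell in control 2 (−0.76) and AP1AR-DT_OE 2 (−0.41). Over all genes with such a mean rho was 0.71, 0.65, −0.77 and −0.56 in this order, so the members followed the table. These are correlations across genes of a library, which are not independent, and they share that library's depth and preparation. MRPL3 (uL3m, 42.5% GC), a core protein of the large subunit, deviated by −1.47 and −0.73 in control 1 and AP1AR-DT_OE 1 and by 1.17 and 1.04 in control 2 and AP1AR-DT_OE 2. MRPL41 (66.7% GC) deviated by 0.17 and 0.16 in control 1 and AP1AR-DT_OE 1 and by −0.32 and −0.02 in control 2 and AP1AR-DT_OE 2. With the GC trend taken out MRPS18A was the only member called, as before.

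**Figure D5:**
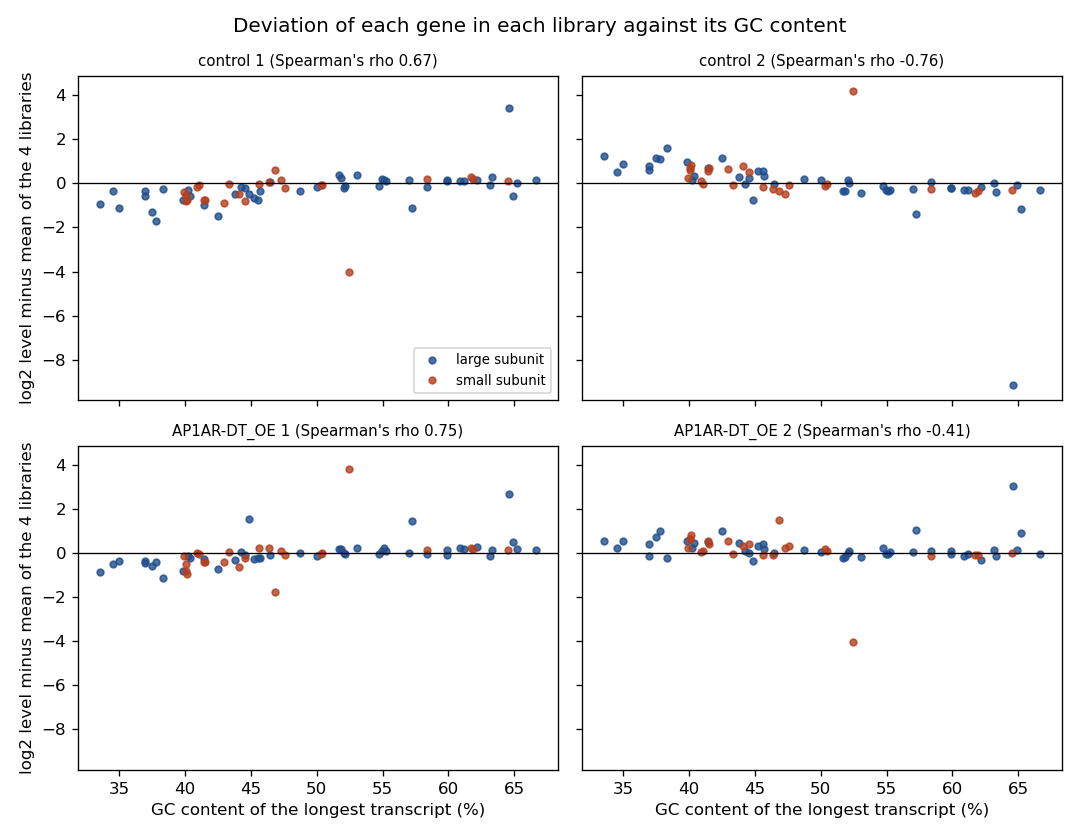
Deviation of the log2 normalized count of each member (mean of at least 50) from its mean over the 4 libraries, against the GC content of its longest transcript in percent, by library and subunit. The points rise with GC in control 1 and AP1AR-DT_OE 1 (rho 0.67 and 0.75) and fall in control 2 and AP1AR-DT_OE 2 (−0.76 and −0.41), and those far from the rest belong to MRPL12, MRPS17 and MRPS18A among others.

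The partners of the mitoribosome were read from 5 lists. These were 6 ribosomal proteins with other symbols, 25 of 27 assembly factors, 15 translation factors, 16 of 17 mitochondrial tRNA synthetases and the 13 protein-coding transcripts of the mitochondrial genome. Of these 75 genes 0 were called by DESeq2 or by edgeR, 1 had an unadjusted p under 0.05 in DESeq2, and 40 had a Log2FC above 0 (median 0.03). Of all genes 0.137% were called by DESeq2, 0.816% had an unadjusted p under 0.05 and edgeR called 0 of 17027, so these counts are near the background and tell little about the lists. DAP3 (mS29) had a Log2FC of −0.03 (SE 0.50) and PTCD3 (mS39) of 0.17 (SE 0.70). TUFM, the elongation factor that brings tRNA to the ribosome, had 0.04 (SE 0.44), and LRPPRC, which stabilises mitochondrial messengers, had 0.06 (SE 0.60).

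The gene with an unadjusted p under 0.05 was MTG1, a GTPase of large subunit assembly. It had 195 and 229 counts in control libraries and 191 and 801 in AP1AR-DT_OE libraries, so only AP1AR-DT_OE 2 was high and the groups overlapped (Log2FC 1.33, SE 0.63, DESeq2 adjusted p = 1.00). The mitochondrial genome transcripts, whose messengers the ribosome translates, had Log2FC values from −0.21 to 0.07 with a median of −0.07. They held 6.09% and 5.84% of the counts of the controls and 6.24% and 5.36% of those of AP1AR-DT_OE.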

How the data were processed

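RNA-seq of 4 libraries of SK-N-SH cells was used, 2 control and 2 AP1AR-DT_OE, grouped by title. Per the paper's methods the authors aligned reads to hg19 with HISAT2 and took counts from StringTie output, whereas the submitters' processing notes name TopHat2 2.0.4, SAMtools, HTSeq, Cuffdiff and edgeR 2.6.12. The deposited values used here are whole counts per gene with no normalization. The deposited table also holds the authors' DESeq2 and edgeR fold changes and p-values, which were not used. Low values piled up at 4 (3287 values, against 2136 at 3 and 1509 at 5), so a read pair was taken as 4 counts and the limit for a count of 0 as 3 pairs, or 12 counts. Floors cover counting error only. Coordinates are those of the table (GRCh38). Library totals were 21988065 to 26184599 counts.

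The whole table was fitted with DESeq2 1.42.0 in R 4.3.3 (median-of-ratios size factors, Wald test without covariate, Benjamini-Hochberg adjustment over all genes, called under 0.05). Length, GC content and exon overlap came from GENCODE v44 mapped to GRCh37, matched for 23954 of 24014 genes, and deviations used log2 of normalized count plus 1. Promoter sequences are RefSeq's. Alternatives used edgeR 4.0.16 and are given at the end. Summing of overlapping genes, the canonical length and other lengths for the MRPS18A ratio were chosen after seeing the data. The members and gene lists were chosen with earlier results of these data known. Genes named were those of the MRPS18 group, the 5 highest and 3 lowest per kilobase in each subunit, the 5 largest rises and falls with groups apart (no fall qualified), those with an unadjusted p under 0.05, those at the limit in a library, and DAP3, PTCD3, TUFM and LRPPRC. MRPL3, MRPS24, MRPL10 and MRPL11 and the overlapping genes were named after their values were seen. In simulated counts for AP1AR-DT_OE against control over 24014 genes, 58 of 100 genes changed 4-fold and 100 of 100 changed 16-fold were called, with 52 unchanged genes called besides. 1 further row whose symbol has the member form is not reported here.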

Additional observations from a re-analysis of the deposited data

How the results depend on the processing

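MRPS18A was the 1 member called in the main test and under the likelihood-ratio test, TMM factors, counts divided by 4, the GC correction, independent filtering turned off, and a minimum of 10 counts in 2 or more libraries. With edgeR's quasi-likelihood test 0 members were called, and the Log2FC of AP1AR-DT (6.60, adjusted p = 0.39) and of MRPS18A (2.52) stayed high without passing. With overlapping genes summed, an alternative chosen after seeing the data, 0 members were called and the Log2FC of MRPS18A turned to −0.12. Leaving out a library gave between 0 and 2 members called. There were 0 without AP1AR-DT_OE 1 (45 genes called in all) and without AP1AR-DT_OE 2 (50 genes), and 2 without control 1, MRPS18A and MRPL12, where the only control left had 0 counts of MRPL12. The Log2FC of MRPS18A then ranged from 2.30 to 2.72, and that of AP1AR-DT kept its call. The median Log2FC ranged from −0.018 to 0.23 in the large and from 0.030 to 0.24 in the small subunit. The mean log2 ratio of MRPS18A over MRPS18C was 5.49, a lower bound for the counts as given to each row. It ranged from 5.03 to 5.92 without a library. It was 4.81 with canonical transcripts and 6.21 with exon-union length, both added after seeing the data. With exon-union length the median levels were 393.1 and 128.4 per kilobase in the large and small subunit, and with the canonical transcript 920.8 and 235.8. After the GC correction 2 members had both AP1AR-DT_OE libraries below both controls, against 0 before, and 7 had both above, against 9. For this setting no share over all genes was computed. The cause of these changes was not tested, other than by the construction of each alternative. Counts over all genes went from 33 called to 0 with edgeR, 15 with counts divided by 4, 55 with the GC correction, 60 with the GC correction and the replicate block, 90 without control 1 and 75 without control 2. Log2FC of MRPL52, MRPL42, MRPL36, MRPL4 and MRPS15 kept its sign and did not pass in any alternative run.

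The replicate number as a block left MRPS18A as the 1 member called, with 37 genes called in DESeq2 and 44 in edgeR, where the adjusted p of MRPS18A was 0.00082. Deviations of libraries with the same number correlated at 0.49 over 13298 genes, but there are only 2 pairs and the labels do not say what a number shares. The median Log2FC with the block was 0.12 in the large and 0.13 in the small subunit in DESeq2, and 0.11 and 0.12 in edgeR. What can be said of MRPS18C, MRPL39 and MRPS36 is limited by their mean normalized read counts of under 50. Why these counts were low was not tested.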

Other observations

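Pseudogenes named after members gave 31 rows of the table, of which 11 averaged a normalized read count of 50 or more. None was called by DESeq2, and 0 had an unadjusted p under 0.05 in it. Of all genes 0.137% were called and 0.816% had such a p, so these counts are near the background and tell little about the pseudogenes. MRPL3P1, a copy of MRPL3 on chromosome 13, had 268, 1735, 361 and 1119 counts in control 1, control 2, AP1AR-DT_OE 1 and AP1AR-DT_OE 2, where MRPL3 itself had 60, 560, 105 and 397. The copy thus had more counts than its gene in all 4 libraries, and both were low in control 1 and AP1AR-DT_OE 1. MRPS36P1 on chromosome 3 had 82, 571, 98 and 316 counts, also above the 20, 45, 8 and 53 of MRPS36. MRPS18AP1 had more counts than MRPS18A in the controls and fewer with AP1AR-DT_OE. How reads were divided between these copies and their genes was not tested.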
